A study of Homo sapiens with 24 samples.

Results

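The EGF receptor family and its ligands were described in A375 melanoma cells that overexpressed the long noncoding RNA SLNCR or deletion forms of it. The 10 genes were taken by symbol: the receptors EGFR, ERBB2, ERBB3 and ERBB4, the ligands TGFA, HBEGF, AREG, EREG and NRG1, and the receptor inhibitor ERRFI1. All 10 were found among the 28008 genes of the batch 1 table and the 60221 genes of the batch 2 table. The family was chosen by the fold changes and calls of its genes in earlier results of these data, so the tests below describe where its genes fell in a fit over all genes and are no independent support.

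The receptors are membrane tyrosine kinases that pair when a ligand binds and then signal through RAS, MAP kinase and PI3 kinase. Their ligands are made as membrane proteins and are released by metalloproteases, and ERRFI1 is made in response to receptor signalling and blocks the kinase. ERBB2 has no known ligand of its own, and ERBB3 has a weak kinase and acts through its partners. In melanoma, EGFR is known for rising in dedifferentiated and BRAF inhibitor-resistant cells, and ERBB3 with its ligand NRG1 for adaptive signalling under pathway inhibition.

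The study asked which genes the triplex-forming regions (TFRs) of SLNCR regulate, a TFR being an RNA stretch predicted to lie in the groove of double-stranded DNA. A375 is an established line from a human melanoma, bought from ATCC, and the labels call its cell type epithelial. All groups were lipofected with a pcDNA3.1 plasmid that holds a CAG promoter and a puromycin resistance gene, and RNA was taken after 48 h in medium with 2 µg/mL puromycin. In batch 1 the plasmid carried SLNCR without TFR1 (ΔTFR1), SLNCR without TFR2 (ΔTFR2), full-length SLNCR (FL) or no insert (empty vector, EV); in batch 2 it carried SLNCR without TFR4 (ΔTFR4), without TFR5 (ΔTFR5), FL or EV. Each group had 3 libraries, which the labels call biological replicates, all of 1 cell line.

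Libraries held 8627449 to 10789211 counts in batch 1 and 24810226 to 33063445 in batch 2. SLNCR was higher in every library that received it: the gene counted for it (LINC00673 in batch 1 and LINC00511 in batch 2) lay at 165.1 to 239.9 CPM (counts scaled to a common library size) in the SLNCR groups and 18.9 to 20.8 in EV in batch 1, and at 191.6 to 728.1 CPM in the SLNCR groups and 27.9 to 30.1 in EV in batch 2. Counts per gene do not show which TFR was removed. Of the epithelial markers, CDH1, ESRP1 and GRHL2 averaged under 0.1 CPM over the 12 libraries of batch 1, as did the melanocyte markers TYR and S100B. In batch 2 this held for TYR and for none of the 10 epithelial markers. Over the groups of batch 1 the 10 epithelial markers summed to 418.8 to 589 CPM and the 10 melanoma and melanocyte markers to 167.8 to 193.6 CPM, so other members of both lists were present. All levels below are CPM scaled by TMM, a difference is a log2 fold change ± standard error, and a gene is called at an adjusted p under 0.05, from the quasi-likelihood test of edgeR with adjustment over all genes. In bulk RNA, fewer cells with a transcript and less of it per cell cannot be told apart.

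Per kilobase of exon, the family had the same upper ranks in both batches, in a different order. In EV of batch 1, TGFA was highest with 69.2 CPM per kilobase, followed by ERRFI1 with 49.5, HBEGF with 28.1 and EGFR with 13.2. In EV of batch 2, ERRFI1 led with 91.5, followed by TGFA with 36.4, HBEGF with 28.6 and EGFR with 15.2. ERBB2, NRG1 and AREG lay between 3.88 and 8.36 CPM per kilobase in both. ERBB3 had 0.187 in batch 1 and 1.63 in batch 2, EREG 0.0494 and 1.03, and ERBB4 0 and 0.00458. The batches were counted in different ways, so their levels are set side by side and not compared. Neighbours in these orders were not tested against each other.

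The members lie apart in the genome except for one pair (GENCODE 29, GRCh38). EGFR is at chr7:55019021-55211628 on the plus strand, ERBB2 at chr17:39687914-39730426 (plus), ERBB3 at chr12:56076799-56103505 (plus) and ERBB4 at chr2:211375717-212538841 (minus). TGFA is at chr2:70447280-70554193 (minus), HBEGF at chr5:140332843-140346631 (minus) and ERRFI1 at chr1:8004404-8026308 (minus). EREG at chr4:74365143-74388751 and AREG at chr4:74445134-74455009 are near each other on the plus strand, and NRG1 is on another chromosome.

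The promoters of 4 members follow, because 3 of them (HBEGF, EGFR and ERRFI1) rose together with FL in batch 2 and the fourth, EREG, stood apart from them. Each is a RefSeq window (GRCh38.p14) of 300 bases, from 250 before to 50 after the annotated start, 5′ to 3′ on the gene's strand. Capitals mark the longest run of purines or of pyrimidines alone, since triplex-forming RNA is known to favour such runs.
HBEGF (chr5:140346554-140346853, minus strand): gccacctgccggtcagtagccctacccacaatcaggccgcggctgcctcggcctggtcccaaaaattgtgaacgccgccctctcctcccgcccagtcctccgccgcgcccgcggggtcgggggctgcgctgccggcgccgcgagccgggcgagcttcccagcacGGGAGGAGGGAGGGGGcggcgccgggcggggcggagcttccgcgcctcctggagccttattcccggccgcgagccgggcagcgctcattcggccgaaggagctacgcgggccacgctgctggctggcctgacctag
EGFR (chr7:55018767-55019066, plus strand): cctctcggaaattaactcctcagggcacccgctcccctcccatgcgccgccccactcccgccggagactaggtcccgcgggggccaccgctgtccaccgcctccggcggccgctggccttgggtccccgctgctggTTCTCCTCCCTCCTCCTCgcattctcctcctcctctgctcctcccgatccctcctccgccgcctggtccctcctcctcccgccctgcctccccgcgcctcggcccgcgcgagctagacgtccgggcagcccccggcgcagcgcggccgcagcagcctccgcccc
ERRFI1 (chr1:8026260-8026559, minus strand): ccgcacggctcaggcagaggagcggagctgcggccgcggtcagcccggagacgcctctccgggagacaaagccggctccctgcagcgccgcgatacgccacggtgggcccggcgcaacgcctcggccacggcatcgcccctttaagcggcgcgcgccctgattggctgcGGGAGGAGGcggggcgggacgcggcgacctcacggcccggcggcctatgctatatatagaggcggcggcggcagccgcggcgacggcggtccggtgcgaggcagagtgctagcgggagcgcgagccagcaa
EREG (chr4:74364895-74365194, plus strand): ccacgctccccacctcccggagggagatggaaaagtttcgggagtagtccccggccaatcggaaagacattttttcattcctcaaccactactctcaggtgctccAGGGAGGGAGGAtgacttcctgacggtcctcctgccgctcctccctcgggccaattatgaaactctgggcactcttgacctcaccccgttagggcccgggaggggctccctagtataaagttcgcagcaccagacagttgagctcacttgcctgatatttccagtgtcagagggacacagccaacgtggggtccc

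Windows were found for 8 of the 10 members and not for ERBB3 or NRG1. The capital run is 16 purines in HBEGF, from 86 to 71 bases before the start, 18 pyrimidines in EGFR, from 114 to 97 bases before it, 9 purines in ERRFI1 and 12 purines in EREG. Over all 35116 windows the median longest run was 11 bases, and 15.4% of windows had a run of at least 16, 9.4% one of at least 18, 44.9% one of at least 12 and 84.8% one of at least 9. GC boxes (GGGCGG on either strand, in 45.0% of all windows) matched at 5 places in HBEGF, 3 in EGFR, 1 in ERRFI1 and none in EREG. In HBEGF 2 of the matches share a base with each other and 1 overlaps the capital run. The AP-1 letters TGAGTCA (4.9% of windows), the EGR letters GCGNGGGCG (9.4%), the ETS letters CCGGAA (17.2%) and the CArG box (1.3%), searched on both strands, matched in none of these 4 windows. RefSeq has another EGFR window, chr7:55109589-55109888, not printed here, with 2 AP-1 matches and no GC box. Among the other windows not printed, GC boxes matched at 4 places in 1 TGFA window, 0 in its other window, 1 each in ERBB4 and AREG and 0 in ERBB2. The longest run in ERBB4 was 16 pyrimidines, as long as that of HBEGF. GC boxes and runs of this length were thus not confined to the members that rose with FL in batch 2. A match describes letters only, and binding of SLNCR or of a factor was not measured.

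In batch 2, FL against EV asks what SLNCR does to the family. EGFR, HBEGF and ERRFI1 rose (3 of 10, beside 1.03% of all genes called higher) and ERBB3 fell (1 of 10, beside 0.128% called lower). ERBB2, ERBB4, TGFA, AREG, EREG and NRG1 did not pass. These 4 of 10 members stood beside 1.16% of all 18763 tested genes called (217 genes) in either direction, and the median difference was 0.13 over the members and 0.02 over all genes. The groups did not overlap in 4 of the 10 members, against 23.0% of all genes. The plot of batch 2 levels shows the 12 libraries of each member.

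**Figure D1:**
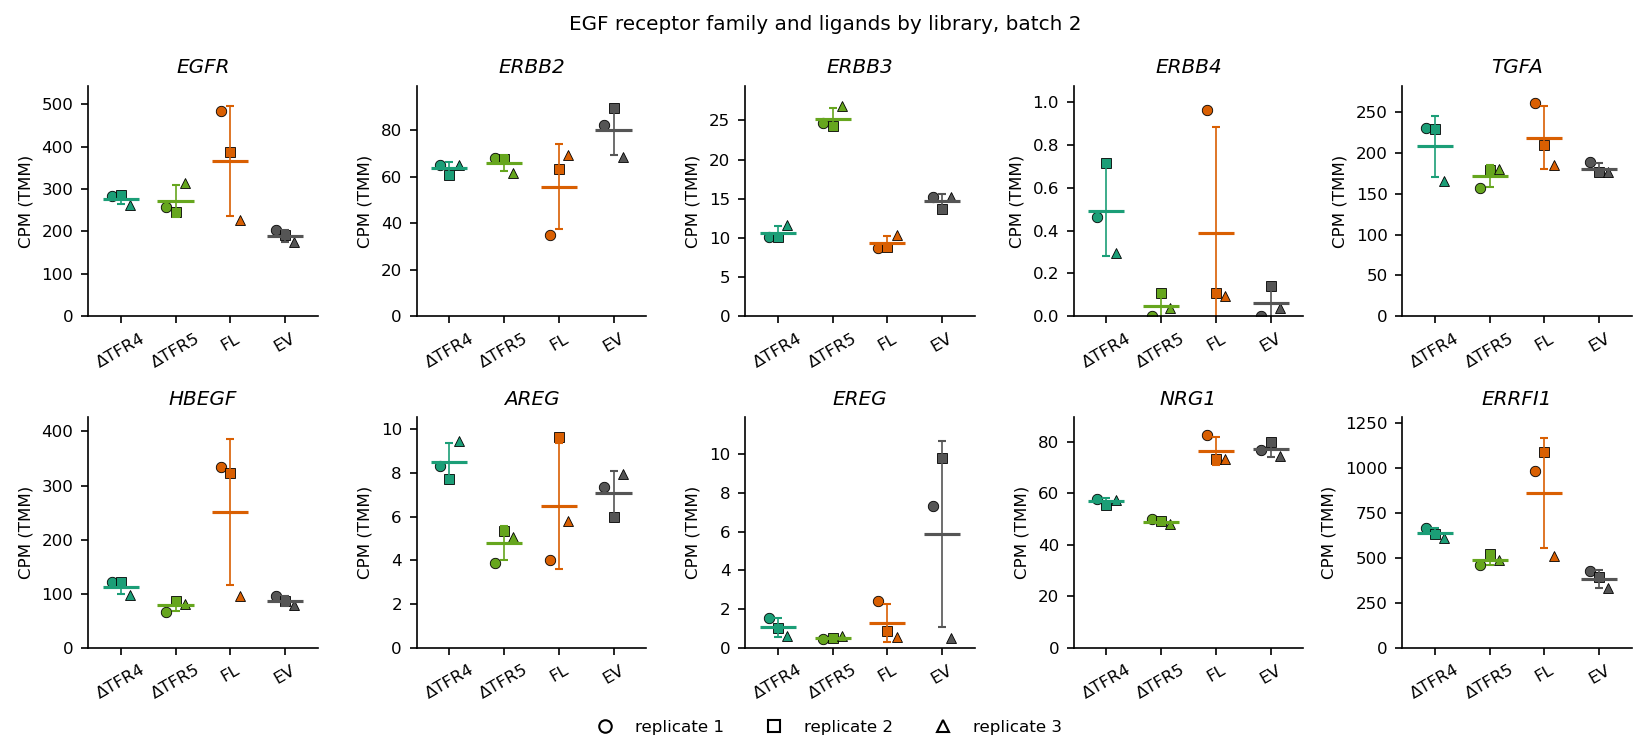
Level of each member in the 12 libraries of batch 2 (y axis, CPM scaled by TMM from 0; x axis, groups ΔTFR4, ΔTFR5, FL and EV). Symbols are replicates, bars the mean and lines the SD of 3 libraries; HBEGF reaches 333.8 and 323.7 CPM in FL replicates 1 and 2 and 95.6 in FL replicate 3, and ERBB3 lies at 24.2 to 26.8 CPM in ΔTFR5.

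EGFR, the receptor that gives the family its name, had 483.7, 387.7 and 226.7 CPM in FL, against 202.7, 192.2 and 174.5 in EV. All FL libraries were above all EV libraries, and FL replicate 3 was the closest to them. The difference was 0.95 ± 0.21 (adjusted p = 0.0496). HBEGF, the heparin-binding ligand of EGFR and ERBB4, had 333.8, 323.7 and 95.6 CPM in FL, against 95.1, 85.6 and 78.2 in EV. Replicates 1 and 2 of FL were far above EV, while replicate 3 was within 1 CPM of the highest EV library. The difference was 1.54 ± 0.34 (adjusted p = 0.0496).

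ERRFI1, the kinase inhibitor induced by receptor signalling, had 980.2, 1087 and 509.8 CPM in FL, against 424, 395.6 and 329.6 in EV. It had the same pattern, with FL replicate 3 lowest in its group and above all EV libraries, and a difference of 1.17 ± 0.22 (adjusted p = 0.042). ERBB3, the kinase-poor receptor of NRG1, had 8.71, 8.82 and 10.4 CPM in FL, against 15.3, 13.7 and 15.2 in EV. All FL libraries were lower, replicate 3 included. The difference was -0.66 ± 0.13 (adjusted p = 0.0431).

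The 4 calls held with each library's trend over GC content removed, where 4.08% of all genes were called (adjusted p = 0.0416 for EGFR, 0.0477 for HBEGF, 0.0329 for ERRFI1 and 0.038 for ERBB3). That trend, the log2 difference between genes of 60 and 40% GC, was -0.924 in FL replicate 1 and between -0.1 and 0.238 in the other 11 libraries. Each call was lost without any 1 of FL replicates 1 and 2 or EV replicates 1, 2 and 3, with an adjusted p of 0.082 to 0.218 and the direction kept. Without FL replicate 3 the differences were 1.19, 1.92, 1.42 and -0.76, and ERBB2 and ERBB4 passed too; that fit called 5966 genes in all, against 217 with the library kept. With RLE size factors EGFR (adjusted p = 0.0527) and HBEGF (0.052) did not pass, nor HBEGF with no filter on low counts (0.108). A fit of FL and EV alone called none of the 10 members and 2 genes in all, where DESeq2 on the 4 groups called the same 4 members and 2061 genes in all.

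A gene on the same strand, AC034102.2, shares exon sequence with ERBB3 and was counted at 2.49, 0.89 and 0.212 CPM in FL, against 0, 0 and 0.387 in EV. The sum of both genes was 9.71 to 11.2 CPM in FL and 13.7 to 15.6 in EV, so the groups of the sum did not overlap either. EGFR and ERRFI1 have antisense genes over their exons, EGFR-AS1 and AL034417.4, which were under 1.5 CPM in every library, and ERBB2 shares exon sequence with MIEN1 and PGAP3 on the other strand. The strand setting of the counting is not given in the sources used here, so these counts are uncertain to that extent.

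The level of the SLNCR locus itself differed among the libraries that received it. It was 728.1, 658.3 and 334.1 CPM in FL, 515.1, 497.9 and 443.9 in ΔTFR4 and 320.8, 375.7 and 191.6 in ΔTFR5, against 30.1, 29.1 and 27.9 in EV. The 2 libraries with the most SLNCR, FL replicates 1 and 2, were also the 2 highest for HBEGF, EGFR and ERRFI1 and the 2 lowest for ERBB3. FL replicate 3 had less SLNCR than all ΔTFR4 libraries, and less HBEGF, EGFR and ERRFI1 than all of them. EGFR in ΔTFR5 did not follow this order: it was highest, at 314.7 CPM, in the library with the least SLNCR. The part of the SLNCR level in these differences was not tested.

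**Figure D2:**
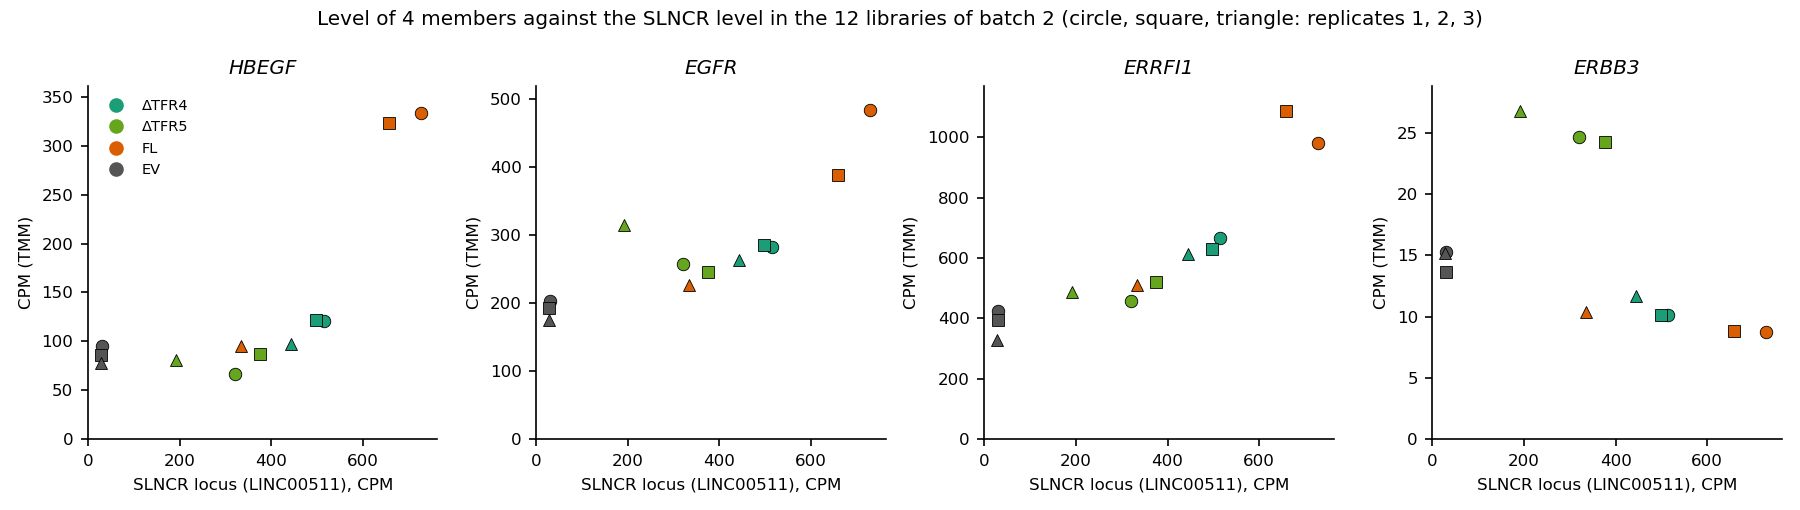
Level of HBEGF, EGFR, ERRFI1 and ERBB3 (y axis, CPM from 0) against the level of the SLNCR locus (x axis, CPM) in the 12 libraries of batch 2, colored by group with 1 symbol per replicate number. FL replicates 1 and 2 lie at the far right, at 728.1 and 658.3 CPM of SLNCR, and ERBB3 in ΔTFR5 lies above all other libraries at 191.6 to 375.7 CPM of SLNCR.

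Of 3 marker lists, the dedifferentiated one lay above EV in every library that received SLNCR, and the other lists overlapped EV in FL. The summed level of 8 dedifferentiated melanoma markers, a list that holds EGFR, was 3995 to 4285 CPM in ΔTFR4, 3271 to 3423 in ΔTFR5 and 2863 to 4788 in FL, against 2609 to 2718 in EV. That of 10 melanoma and melanocyte markers was 205.1 to 218.4 CPM in ΔTFR4, 211.3 to 221.5 in ΔTFR5 and 238.5 to 296.4 in FL, against 258.7 to 276.6 in EV. That of 10 epithelial markers was 429.5 to 543.1 CPM in ΔTFR4, 590.9 to 636.7 in ΔTFR5 and 301 to 712.2 in FL, against 597.5 to 656 in EV. Their part in the results was not tested. CD3E and CDH5, which define T cells and endothelium, averaged under 0.1 CPM over the 12 libraries.

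Removal of TFR5 was compared with FL to see which genes need that region. ERBB3 rose and HBEGF and NRG1 fell in ΔTFR5 against FL, 3 of 10 members, beside 1.38% of all genes called, 0.826% higher and 0.554% lower. Groups did not overlap in 4 members, against 17.1% of all genes. The median difference was -0.54 over the members and -0.02 over all genes. ERBB3 had 24.7, 24.2 and 26.8 CPM in ΔTFR5, against 8.71, 8.82 and 10.4 in FL. All ΔTFR5 libraries were more than double every FL library, with a difference of 1.44 ± 0.13 (adjusted p = 0.000855), which lost its call only in the fit of these 2 groups alone (1.44, adjusted p = 0.0652), where 1 gene was called in all.

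HBEGF had 66.3, 87.2 and 81.2 CPM in ΔTFR5, against 333.8, 323.7 and 95.6 in FL. The groups did not overlap, FL replicate 3 being nearest. The difference was -1.68 ± 0.34 (adjusted p = 0.0336). The call was lost without FL replicate 1 or 2 (-1.43, adjusted p = 0.114, and -1.44, 0.0768) and without any 1 ΔTFR5 library (-1.76 to -1.57), with no filter on low counts (0.111), with the replicate block and GC trends removed together (0.0525) and in the fit of 2 groups (0.345), and without FL replicate 3 the difference was -2.07.

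NRG1, the neuregulin that binds ERBB3 and ERBB4, had 49.9, 49.2 and 47.9 CPM in ΔTFR5, against 82.7, 73.4 and 73.3 in FL. The libraries of each group lay close together and the groups were well apart, with a difference of -0.64 ± 0.10 (adjusted p = 0.0116), lost without ΔTFR5 replicate 1 (adjusted p = 0.0745) or 2 (0.0883) and in the fit of 2 groups (0.33). EGFR differed by -0.43 ± 0.21 (adjusted p = 0.263), TGFA by -0.35 ± 0.15 (0.218) and ERRFI1 by -0.82 ± 0.21 (0.071). Without FL replicate 3, EGFR (-0.68) and ERRFI1 (-1.08) passed as well, in a fit that called 3480 genes in all, against 259. ERRFI1 also passed with DESeq2 (0.00927), with no filter on low counts (0.0225) and with the replicate block and GC trends removed together (0.0477).

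In ΔTFR4 against FL 1 of 10 members was called, NRG1, beside 4.36% of all genes (1.90% higher and 2.47% lower). Groups did not overlap in 1 member, against 24.2% of all genes. NRG1 had 57.8, 55.3 and 57.5 CPM in ΔTFR4, against 82.7, 73.4 and 73.3 in FL. Every ΔTFR4 library was below every FL library, and the difference was -0.43 ± 0.10 (adjusted p = 0.0319). It was lost without any 1 ΔTFR4 library (adjusted p = 0.114 to 0.152), with no filter on low counts (0.149) and in the fit of 2 groups (0.244). HBEGF had 120.8, 121.5 and 96.7 CPM in ΔTFR4, against 333.8, 323.7 and 95.6 in FL, so that FL replicate 3 lay below all ΔTFR4 libraries. Its difference of -1.15 ± 0.33 did not pass (adjusted p = 0.0657), did with DESeq2 (0.00847; 1907 genes called in all, against 819 by edgeR), and without FL replicate 3 was -1.54 (0.000169; 2220 genes in all). ERBB3 had 10.1, 10.1 and 11.6 CPM in ΔTFR4, a difference of 0.19 ± 0.13 from FL (adjusted p = 0.413).

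**Figure D3:**
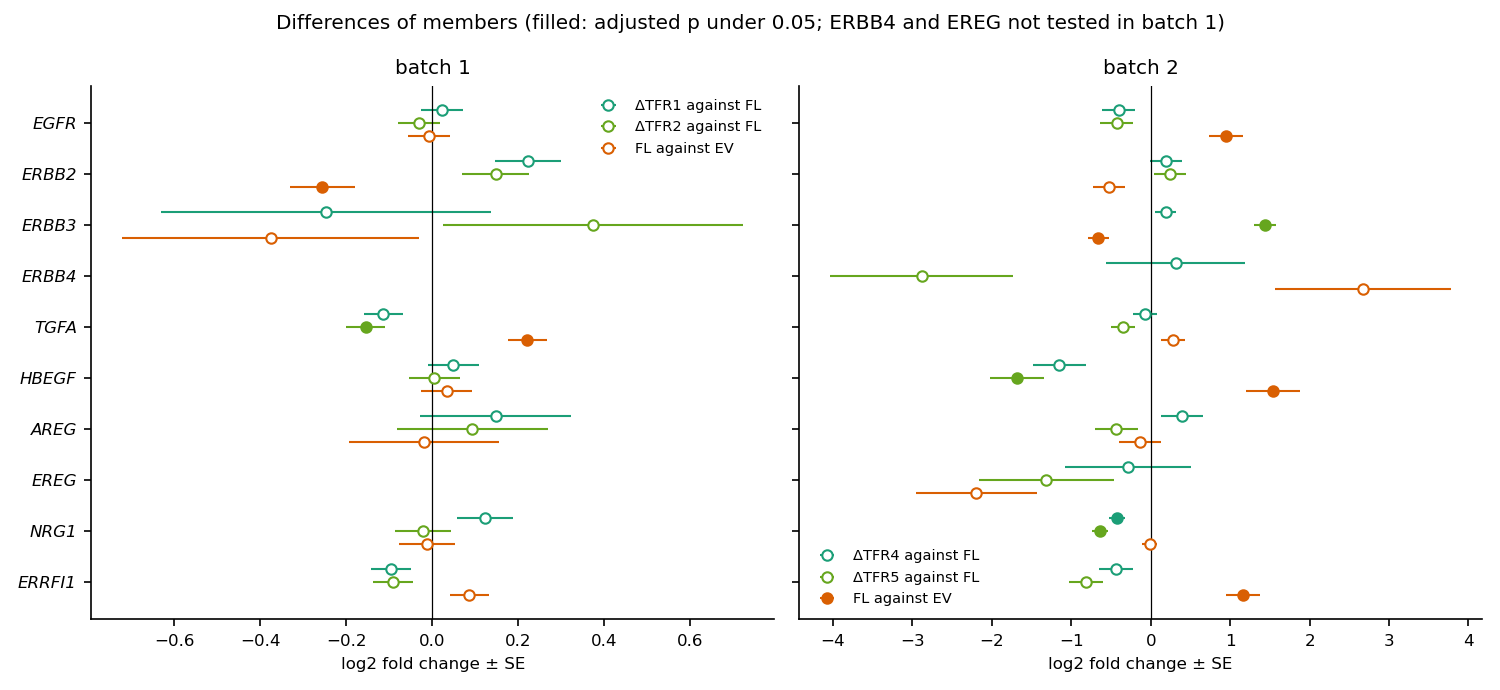
Differences of the members (x axis, log2 fold change ± SE; y axis, members) for each deletion against FL and for FL against EV, batch 1 left and batch 2 right, on different x scales; filled points are called at an adjusted p under 0.05. Batch 1 members lie within 0.4 of 0, while ERBB3 reaches 1.44 in ΔTFR5 against FL and HBEGF 1.54 in FL against EV in batch 2.

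Set against each other, ΔTFR5 and ΔTFR4 differed in 1 of 10 members, ERBB3, beside 0.453% of all genes (85 genes), 0.357% higher and 0.0959% lower. It had 24.7, 24.2 and 26.8 CPM in ΔTFR5, against 10.1, 10.1 and 11.6 in ΔTFR4. The difference of 1.25 ± 0.13 (adjusted p = 0.000294) stayed called in all 13 alternatives, which include leaving out each of the 6 libraries, at 1.20 to 1.32. NRG1 was lower in every ΔTFR5 library than in every ΔTFR4 library, at -0.21 ± 0.10, and did not pass (adjusted p = 0.506). AREG, the amphiregulin ligand of EGFR, had 3.9, 5.35 and 5.08 CPM in ΔTFR5, against 8.31, 7.71 and 9.44 in ΔTFR4. These groups did not overlap, and the difference of -0.83 ± 0.27 did not pass (adjusted p = 0.338), except in the fit of 2 groups (0.0111). Groups did not overlap in 6 of 10 members, against 27.3% of all genes.

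Both deletions of batch 2 were also set against EV, where many genes were called. In ΔTFR5 against EV, 3 of 10 members passed beside 10.2% of all genes (5.48% higher and 4.68% lower): ERBB3 rose by 0.78 ± 0.13 (adjusted p = 0.00444), and NRG1 and EREG fell. In ΔTFR4 against EV, 4 of 10 passed beside 23.9% of all genes (12.5% higher and 11.4% lower): ERRFI1 rose, and ERBB3, NRG1 and EREG fell. Groups did not overlap in 6 members in ΔTFR5 and 7 in ΔTFR4, against 44.6% and 56.7% of all genes. ERBB3 lay above EV in ΔTFR5 and below it in ΔTFR4, at -0.47 ± 0.13 (adjusted p = 0.022). The call in ΔTFR4 was lost with no filter on low counts (0.11) and without ΔTFR4 replicate 1 (0.0844) or 2 (0.0933) or EV replicate 1 (0.0818) or 3 (0.0769). These comparisons share the EV libraries with FL against EV.

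NRG1 was lower than EV with both deletions, by -0.65 ± 0.10 in ΔTFR5 (adjusted p = 0.00252) and -0.44 ± 0.10 in ΔTFR4 (adjusted p = 0.00727). EV had 76.9, 80.1 and 74.4 CPM, and every library of both deletions was below all of them. Neither call was lost by leaving out a single library, and that in ΔTFR4 was lost with no filter on low counts (0.0526). Without EV replicates 1 and 2, a setting chosen after the values were seen, neither passed (-0.61 in ΔTFR5, 0.173, and -0.40 in ΔTFR4, 0.21), nor did ERBB3 in ΔTFR5 (0.73, 0.227). In FL NRG1 had 73.3 to 82.7 CPM and differed from EV by -0.01 ± 0.10 (adjusted p = 0.945). ERRFI1 had 667.2, 630.1 and 612.4 CPM in ΔTFR4, above all EV libraries, with 424, 395.6 and 329.6. Its difference of 0.73 ± 0.21 (adjusted p = 0.0257) was lost without any 1 library of either group (0.0517 to 0.109).

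EREG, epiregulin, a ligand of EGFR and ERBB4, rested on 2 libraries of EV. It had 1.55, 1.02 and 0.595 CPM in ΔTFR4, 0.437, 0.499 and 0.602 in ΔTFR5 and 2.4, 0.886 and 0.531 in FL, against 7.32, 9.84 and 0.492 in EV. EV replicates 1 and 2 were high, and EV replicate 3 lay among the lowest libraries, so the groups overlapped. The differences from EV were -2.48 ± 0.78 in ΔTFR4 (adjusted p = 0.0354) and -3.51 ± 0.84 in ΔTFR5 (adjusted p = 0.0211). Both calls were lost without EV replicate 1 or 2 and without any 1 library of the deletion. They were also lost with no filter on low counts (0.194 in ΔTFR4 and 0.131 in ΔTFR5) and in the fit of 2 groups (0.152 and 0.0969). Without EV replicates 1 and 2 together they were 1.08 (adjusted p = 0.541) and 0.05 (adjusted p = 1). FL differed from EV by -2.20 ± 0.76 and did not pass (adjusted p = 0.108).

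The plot of differences with a library left out shows this for the called members of batch 2. ERBB3 in ΔTFR5 and NRG1 in ΔTFR5 kept their values closely whichever library was absent, ERBB3 at 1.39 to 1.53 against FL. EREG in ΔTFR5 against EV ran more widely, between -4.05 without EV replicate 3 and -2.93 without EV replicate 2.

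**Figure D4:**
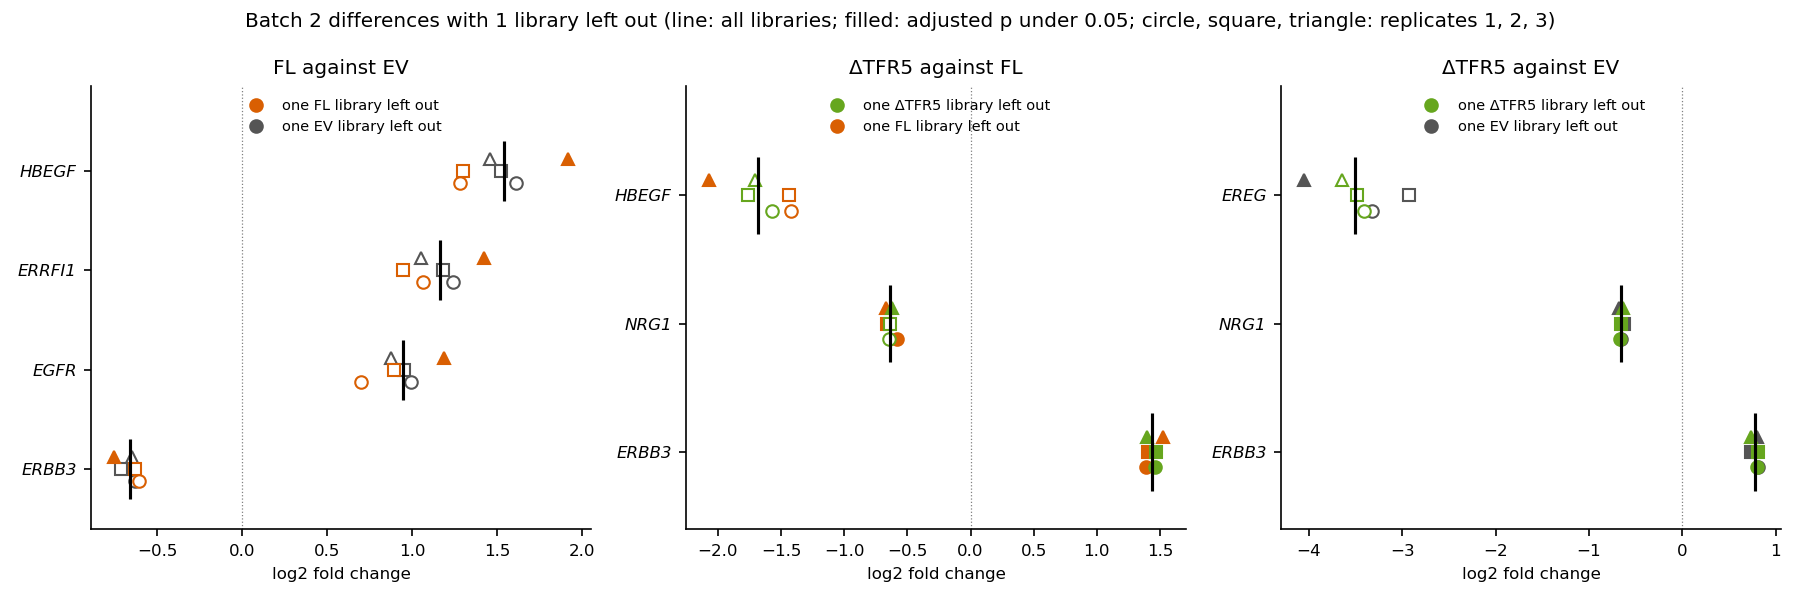
Batch 2 differences (x axis, log2 fold change) recomputed with 1 library left out at a time, for the members called in FL against EV, ΔTFR5 against FL and ΔTFR5 against EV (y axis, members). The black line is the value with all libraries, colors give the group and symbols the replicate left out, and filled symbols are called; HBEGF in FL against EV runs from 1.28 to 1.92 and ERBB3 in ΔTFR5 against FL from 1.39 to 1.53.

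The other members of batch 2 passed in none of the 6 comparisons in the main fit. ERBB2, the receptor without a ligand, had 65.1, 60.8 and 65.2 CPM in ΔTFR4, 68.1, 67.6 and 61.7 in ΔTFR5 and 34.8, 63.1 and 69.2 in FL, against 82.2, 89.4 and 68.5 in EV. FL replicate 1, the library with the GC trend of -0.924, was the lowest, and ERBB2 has the highest GC content of the members, 57.5%. FL differed from EV by -0.52 ± 0.2 (adjusted p = 0.132), and by -0.40 (0.0826) with GC trends removed. The part of GC content in these levels was not tested. In fits of 2 groups against EV, ERBB2 passed in ΔTFR4 (0.00332) and ΔTFR5 (0.0414), beside 48.4% and 30% of all genes. TGFA, the ligand of EGFR alone, lay between 156.7 and 261.2 CPM in the 12 libraries. ERBB4 had 12, 19 and 8 counts in ΔTFR4, 0, 3 and 1 in ΔTFR5 and 32, 3 and 3 in FL, against 0, 4 and 1 in EV. All ΔTFR4 libraries were above all EV libraries (adjusted p = 0.0657), at counts where single reads weigh heavily. The ERBB4 difference passed with DESeq2 (0.0425), with no filter on low counts (0.0451) and with GC trends removed (0.045). It also passed with the replicate block and GC trends removed together (0.0465). These fits called 19.7 to 32.8% of all genes.

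Genes with levels most like those of a called member were sought among genes of mean log2 CPM of at least 1, by the root mean square difference of centered log2 CPM over the 12 libraries. Nearest to ERBB3 were SDC3, the syndecan of nerve tissue, at 0.21, PRRX1, a mesenchymal homeobox factor, at 0.21, and GPR153 at 0.26, where ERBB3 itself varied with an SD of 0.59. PRRX1 had 26.2, 22.2 and 26.9 CPM in ΔTFR5, against 10.03, 9.23 and 10.2 in FL. Nearest to NRG1 were MIR646HG, PFN2 and INO80C at 0.09 to 0.11 (SD of NRG1 0.30). Among the genes nearest to EREG were CYP24A1, which degrades vitamin D, at 0.87 and APOB at 1.02 (SD of EREG 1.47). CYP24A1 had 11.2, 13.1 and 4.24 CPM in EV, high in replicates 1 and 2 and lower in replicate 3, as EREG was. For HBEGF, added after the values were seen, TRAF1 was nearest at 0.18, with 12.8, 11.2 and 2.62 CPM in FL. In batch 1, SMIM13, TMEM245 and TAOK1 were nearest to TGFA, at 0.03 to 0.04 (SD of TGFA 0.10), and MAP2K7, ZDHHC18 and SERPINH1 to ERBB2, at 0.05 (SD of ERBB2 0.13).

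In batch 1, FL against EV called 2 of the 8 members tested, beside 22.7% of all 14310 genes, TGFA higher and ERBB2 lower (beside 11.4% higher and 11.3% lower), and groups did not overlap in 3, against 36.5% of all genes. With GC trends removed, 1 of 8 members (TGFA) was called beside 332 genes in all (2.32%), where the fit without that step called 3247. ERBB4 (1 count in all 12 libraries) and EREG (1 to 8 counts a library) were too low to test.

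TGFA, transforming growth factor alpha, had 411.4, 371 and 418.7 CPM in FL, against 347.6, 336.8 and 345.5 in EV. All FL libraries were higher. The difference was 0.22 ± 0.05 (adjusted p = 0.00162) and stayed called in all 13 alternatives, at 0.19 to 0.28. ERBB2 had 37.6, 39.3 and 41 CPM in FL, against 48.8, 46.3 and 45.5 in EV. All FL libraries were lower, by -0.26 ± 0.08 (adjusted p = 0.016). With GC trends removed this was -0.09 (adjusted p = 0.571), and without EV replicate 1 or FL replicate 1 it was -0.22 in both (0.11 and 0.0864). The GC trend lay between -0.377 and -0.106 in FL and between 0.028 and 0.221 in EV. The 10 epithelial markers summed to 418.8 to 474.4 CPM in FL and 530.4 to 589 in EV, and their part in the result was not tested.

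In ΔTFR2 against FL, TGFA was the 1 called member of 8, beside 10.0% of all genes (4.86% higher and 5.15% lower), and groups did not overlap in 4 members, against 29.6% of all genes. TGFA had 353.9, 354 and 370.5 CPM in ΔTFR2, against 411.4, 371 and 418.7 in FL. The groups did not overlap, by a margin of under 1 CPM. The difference of -0.15 ± 0.05 (adjusted p = 0.0317) was lost with GC trends removed (0.109), in the fit of 2 groups (0.0638) and without any 1 library of the 2 groups except FL replicate 2 (0.0595 to 0.118). In ΔTFR1 against FL, edgeR called 0 of 8 beside 10.1% of all genes (4.40% higher and 5.66% lower), and DESeq2 0 beside 9.08%. ERBB2, TGFA and ERRFI1 had an unadjusted p under 0.05. ERBB2 had 49.6, 47.1 and 40.6 CPM in ΔTFR1, a difference of 0.22 ± 0.08 from FL (adjusted p = 0.0608). TGFA had 356.8, 372.3 and 380.9, a difference of -0.11 ± 0.05 (adjusted p = 0.104). Groups did not overlap in 2 members, against 28.9% of all genes.

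**Figure D5:**
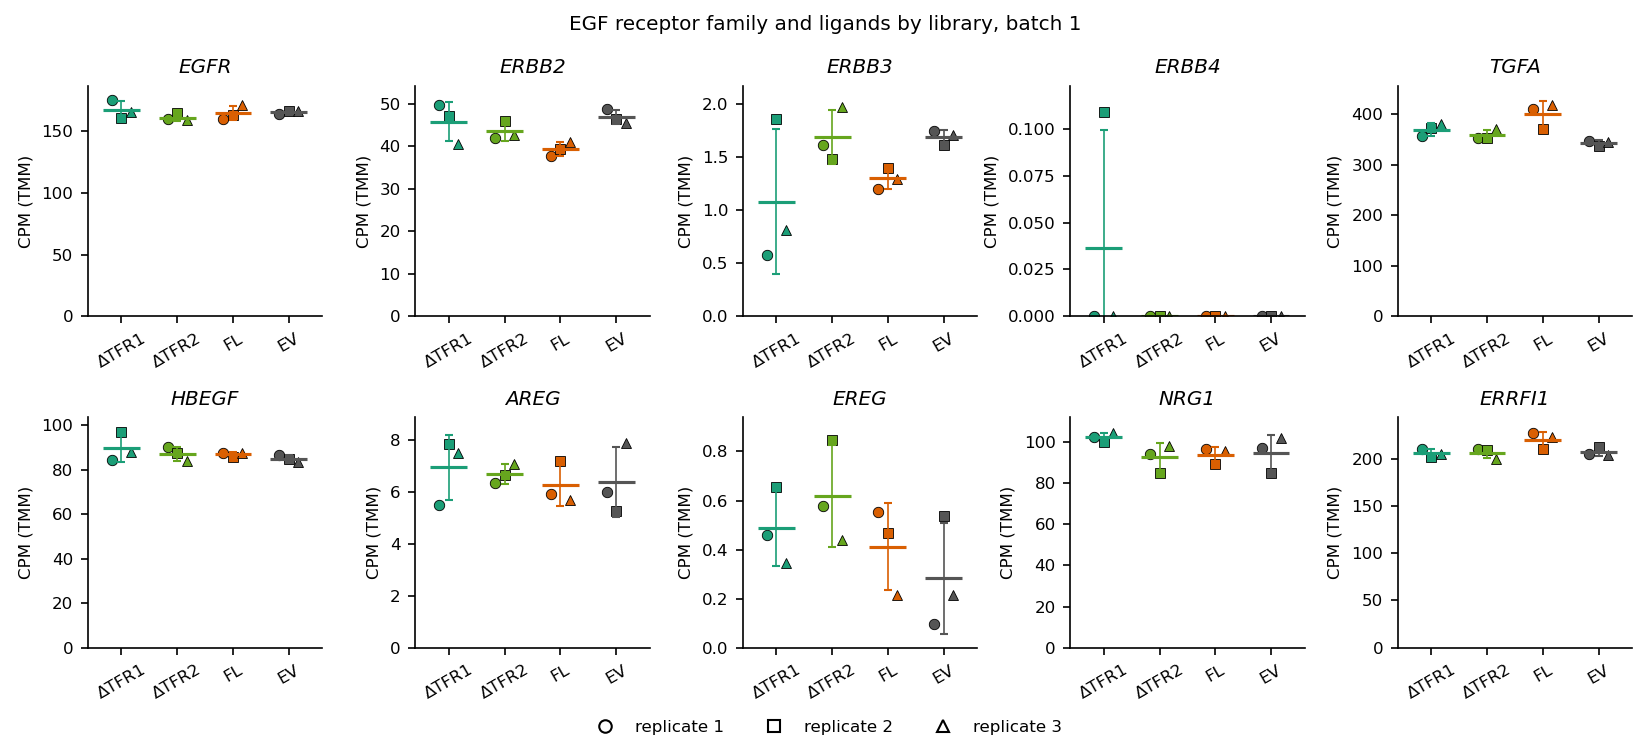
Level of each member in the 12 libraries of batch 1 (y axis, CPM scaled by TMM from 0; x axis, groups ΔTFR1, ΔTFR2, FL and EV). Symbols are replicates, bars the mean and lines the SD of 3 libraries; TGFA lies at 371 to 418.7 CPM in FL and 336.8 to 347.6 in EV, and ERBB4 has a single count in ΔTFR1 replicate 2.

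Against EV, edgeR and DESeq2 called 0 of 8 members in ΔTFR1 and in ΔTFR2, beside 0.00699% and 0.0140% of all genes, and edgeR gave 1 and 0 members at an unadjusted p under 0.05. Groups did not overlap in 1 member in each, against 10.3% and 10.7% of all genes. ΔTFR2 against ΔTFR1 called 0 of 8 members and 0% of genes with both tools (1 member, NRG1, at an unadjusted p under 0.05), and groups did not overlap in 1 member, against 9.43% of all genes. EGFR lay between 159.1 and 175.3 CPM in all 12 libraries of batch 1 and HBEGF between 83.2 and 96.8. FL differed from EV by -0.01 ± 0.05 for EGFR (adjusted p = 0.935), 0.03 ± 0.06 for HBEGF (0.736) and 0.09 ± 0.05 for ERRFI1 (0.175). The rises of these 3 genes with FL in batch 2 had no called counterpart in batch 1, and the difference between batches was not tested. SLNCR in FL was 165.1, 239.9 and 220 CPM in batch 1, made and counted apart from batch 2. NRG1 lay between 84.8 and 104.5 CPM and AREG between 5.26 and 7.89 CPM. ERBB3 lay between 0.574 and 1.97 CPM, where its standard errors, 0.34 to 0.38, were the widest of the members tested.

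The rest of the pathway was described in 6 lists of genes that were likewise chosen with earlier results known. In FL against EV of batch 2, MYC and DUSP5, a MAP kinase phosphatase, rose among 21 MAP kinase target genes, and none fell, beside 1.03% of all genes called higher and 0.128% called lower. MYC had 80.6 to 348 CPM in FL and 64.1 to 77.3 in EV (1.82 ± 0.39, adjusted p = 0.0496), and DUSP5 129.9 to 378.9 in FL and 98.9 to 119.7 in EV (1.29 ± 0.28, 0.0496). The list's median was 0.51, beside 0.02 over all genes. Of 22 other receptor tyrosine kinases ROS1 (1.29 ± 0.16, adjusted p = 0.00545) and DDR2, a collagen receptor (0.94 ± 0.20, 0.0496), rose. Of 13 sheddases and processing genes 1 fell, TIMP3, the metalloprotease inhibitor that restrains ligand release, at -0.98 ± 0.21 (adjusted p = 0.0433), and none rose. By edgeR 0 of 17 receptor attenuators, 0 of 22 adaptors and effectors and 0 of 4 other ligands passed, beside 1.16% of all genes. DESeq2 called 7, 2 and 0 of them, beside 11% of all genes. An unadjusted p under 0.05 was found for 10, 5 and 0.

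With ΔTFR4 against EV, 10 of 21 MAP kinase target genes rose and 1 fell, beside 12.5 and 11.4% of all genes called higher and lower. PHLDA1 rose to 1249 to 1332 CPM, against 681.9 to 745.6 in EV (0.86 ± 0.14, adjusted p = 0.00179), and MYC to 248.8 to 288 CPM, against 64.1 to 77.3 (1.92 ± 0.39, 0.00502). CCND1, cyclin D1, fell to 370 to 404.1 CPM, against 622 to 654.6 (-0.74 ± 0.16, 0.00657). Of 13 sheddases and processing genes 5 fell and 1 rose. ADAM10, a sheddase of EGF family ligands, had 118.1 to 129.6 CPM in ΔTFR4 and 175.4 to 188 in EV (-0.55 ± 0.12, adjusted p = 0.00756), and ADAM19 15.2 to 17.4 CPM in ΔTFR4 and 37.4 to 41.6 in EV (-1.27 ± 0.27, 0.00585). Of 17 attenuators 4 rose, among them RNF41, a ubiquitin ligase that lowers ERBB3 (0.81 ± 0.17, adjusted p = 0.00576), and 3 fell, among them UBASH3B (-1.43 ± 0.21, 0.00105). Of 22 other receptor tyrosine kinases 4 rose and 4 fell, with AXL at 1772 to 1908 CPM in ΔTFR4 and 1235 to 1249 in EV (0.55 ± 0.13, adjusted p = 0.0106). Of 22 adaptors and effectors 2 rose and 2 fell.

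With ΔTFR5 against EV, 3 of 17 attenuators rose and 1 fell, beside 5.48 and 4.68% of all genes. LRIG1, a membrane protein that promotes loss of EGF family receptors, had 22.1 to 25.5 CPM in ΔTFR5 and 10.6 to 12.4 in EV (1.07 ± 0.17, adjusted p = 0.00347). The ubiquitin ligase CBLB rose by 0.88 ± 0.25 (adjusted p = 0.0427) and UBASH3B fell by 0.83 ± 0.21 (0.0238). EGF itself fell to 0.477 to 0.828 CPM, against 1.02 to 1.76 in EV (-1.26 ± 0.36, adjusted p = 0.0412), the 1 called of 4 other ligands tested. Of 21 MAP kinase target genes PHLDA1 rose, and of 22 other receptor kinases 2 rose and 1 fell. Of 22 adaptors STAT5B rose and GRB2 fell. Of 13 sheddases edgeR called 0, beside 10.2% of all genes, and DESeq2 3, beside 15.7%. An unadjusted p under 0.05 was found for 3 sheddases.

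Against FL, edgeR called 0 of the 99 genes of the 6 lists in ΔTFR5, beside 1.38% of all genes. DESeq2 called 9, beside 7.78% of all genes. An unadjusted p under 0.05 was found for 23, and no share over all genes is given for such counts. ΔTFR4 called 4 of 99, a share near the 4.36% of all genes. They were the attenuators PTPN12 (-0.71 ± 0.18, adjusted p = 0.0419) and UBASH3B (-0.79 ± 0.21, 0.0486), the adaptor GAB2 (0.65 ± 0.15, 0.0301) and ROS1 (-0.96 ± 0.16, 0.00894). ROS1 had 13.3 to 15.8 CPM in ΔTFR4, against 25.8 to 33 in FL and 10.4 to 12.3 in EV. ΔTFR5 against ΔTFR4 gave 0 calls with edgeR, beside 0.453% of all genes, and 3 with DESeq2, beside 1.27%. In that comparison 18 list genes had an unadjusted p under 0.05.

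In batch 1, 6 of 17 attenuators rose in FL against EV and none fell, beside 11.4 and 11.3% of all genes. DESeq2 called 5, beside 19.4% of all genes. With GC trends removed, edgeR called 1 of the 93 genes of the 6 lists in FL against EV, PTPN12, and 0 in ΔTFR1 or ΔTFR2 against FL, beside 332, 17 and 25 genes in all, where the fit without that step called 3247, 1440 and 1432. All other values of batch 1 below are from the fit without it. PTPN12, a phosphatase, had 178.1 to 213.3 CPM in FL and 150.4 to 166 in EV (0.31 ± 0.06, adjusted p = 0.000747), and ERBIN, which binds ERBB2, 359.8 to 430.8 CPM in FL and 326.4 to 360.9 in EV (0.22 ± 0.05, 0.00438). Both fell in ΔTFR1 against FL (-0.26 ± 0.06 and -0.19 ± 0.05, adjusted p = 0.00897 and 0.0227) and in ΔTFR2 against FL (-0.26 ± 0.06 and -0.18 ± 0.05, 0.00957 and 0.0282). These comparisons share the FL libraries. The libraries of FL and EV overlapped for ERBIN and did not for PTPN12. Among 21 MAP kinase targets 1 rose and 5 fell, with JUN at -0.43 ± 0.10 (adjusted p = 0.00401), and among 12 sheddases 3 rose and 3 fell, with ADAM10 at 0.20 ± 0.06 (0.0175). PIK3CA rose (0.35 ± 0.07, adjusted p = 0.00113) and EPHA2 fell (-0.23 ± 0.04, 0.000985) in FL against EV. Against FL, ΔTFR1 differed by -0.26 ± 0.07 for PIK3CA and 0.20 ± 0.04 for EPHA2 (adjusted p = 0.019 and 0.0101). ΔTFR2 differed from FL by -0.24 ± 0.07 and 0.19 ± 0.04 (0.026 and 0.0132). Mean PIK3CA was 47.77 CPM in EV, 60.83 in FL, 50.75 in ΔTFR1 and 51.5 in ΔTFR2. Mean EPHA2 was 746.4, 634.7, 726.6 and 722.6 CPM in the same order. Against EV, edgeR called 0 of the 93 list genes in ΔTFR1 and in ΔTFR2.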

How the data were processed

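RNA-seq was deposited for 24 libraries of A375 cells in 8 groups of 3. Per the labels' protocols, ribosomal RNA was depleted and libraries were sequenced on an Illumina HiSeq. The batch 1 table holds counts per gene symbol and the batch 2 table estimated counts per gene, both as deposited by the authors; per the submitters' processing notes the tools included FastQC 0.11.5, STAR 2.7.3a, cutadapt 2.5, DESeq2 1.24.0 and Subread 1.6.2 with featureCounts, and the builds GRCm38 and GRCh38 are listed without a role. Not given in the sources used here are the strand setting, the annotation and the version of the tool behind the estimates. Estimated counts were rounded to whole numbers, after which 8 members in batch 1 and 10 in batch 2 passed the filter. Per the labels' design text, counts of 6 samples from an earlier series were analysed again; the labels do not tie them to any of these libraries, so whether a comparison sets earlier against newer samples cannot be told.

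Each batch was fitted apart over all 12 libraries with edgeR 4.0.16 in R 4.3.3: filterByExpr (minimum count 10, minimum total 15), TMM, and the robust quasi-likelihood test, with Benjamini-Hochberg adjustment over all genes tested (14310 and 18763). Standard errors were derived as the absolute log2 change over the root of the F statistic, and the prior count was 2. There were 12 comparisons. CPM was computed from the counts with TMM library sizes, and levels per kilobase use union exon length in GENCODE 29. The test was checked on simulated counts of FL against EV, drawn with 1 common spread for all genes and groups of a batch and no GC trend. That check does not cover a group with a wider spread, such as FL of batch 2. Replicates of a group differed beyond sampling noise (chi-square per gene 1.5 to 7.12 and 8.44 to 221). P-values measure the spread between libraries of 1 cell line. Alternatives were RLE size factors, no filter, a replicate block, removal of GC trends, both together, the 2 groups alone, DESeq2 1.42.0, an adjusted p under 0.10, and leaving out each library.

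The members, the pathway lists and the comparisons were chosen with earlier results of these data known. All members are named. Of each list, at most the 4 called genes with the lowest adjusted p per comparison are named. For up to 3 called members per batch the 3 most alike genes were found, of which 1 is not reported here.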

Additional observations from a re-analysis of the deposited data

Results flagged for a closer look

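ERBB3 stands out because its level differed between ΔTFR5 and ΔTFR4 by a direct test. The difference of ΔTFR5 from ΔTFR4 was 1.25 ± 0.13 on the log2 scale (edgeR's quasi-likelihood test, adjusted p = 0.000294), with 24.2 to 26.8 CPM in 3 of 3 ΔTFR5 libraries and 10.1 to 11.6 CPM in ΔTFR4. No other member passed in that comparison. SLNCR itself lay at 191.6 to 375.7 CPM in ΔTFR5 and 443.9 to 515.1 in ΔTFR4, and its part in the difference was not tested. The family was chosen with earlier results of these data known, so the test is no independent support.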

How the results depend on the processing

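Batch 2 calls were lost when certain single libraries were left out, with some exceptions. ERBB3 in ΔTFR5 kept its calls against FL, EV and ΔTFR4 whichever library was absent. So did NRG1 in both deletions against EV. Below, counts of members stand beside the number of genes called in all. In FL against EV, 4 members were called with all libraries, beside 217 genes. RLE size factors gave 2 beside 151, and the fit of 2 groups gave 0 beside 2. A library left out gave 0 members beside 6 to 50 genes, except 6 beside 5966 without FL replicate 3. In ΔTFR4 against FL, 1 beside 819 became 2 beside 1878 at an adjusted p under 0.10 and 2 beside 1907 with DESeq2. It became 0 beside 912 with no filter and 0 beside 33 with 2 groups. A library left out gave 0 to 4 members, beside 79 to 2220 genes. In ΔTFR5 against FL, 3 beside 259 became 0 beside 1 with 2 groups. A library left out gave 1 to 5 members, beside 19 to 3480 genes. In ΔTFR4 against EV, 4 beside 4489 became 6 beside 6149 at an adjusted p under 0.10 and 6 beside 9081 with 2 groups. A library left out gave 1 to 2 members, beside 2309 to 2914 genes. In ΔTFR5 against EV, 3 beside 1907 became 6 beside 5635 with 2 groups. A library left out gave 2 to 3 members, beside 440 to 1746 genes. In ΔTFR5 against ΔTFR4, 1 beside 85 became 4 beside 1106 with 2 groups. Without EV replicates 1 and 2 (chosen after seeing the data), the EREG difference changed sign, to 1.08 in ΔTFR4 and 0.054 in ΔTFR5. That setting left EV replicate 3 alone in its group, so these values are effect sizes and no call in the other direction.

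In batch 1, FL against EV gave 2 members beside 3247 genes. With GC trends removed it gave 1 beside 332, and with the block too 1 beside 548. A library left out gave 1 to 2 members, beside 1182 to 4064 genes. ΔTFR1 against FL gave 0 beside 1440, 1 beside 2569 at an adjusted p under 0.10 and 1 beside 2231 with the replicate block. A library left out gave 0 to 2 members, beside 22 to 2752 genes. ΔTFR2 against FL gave 1 beside 1432. It gave 0 beside 25 with GC trends removed, 0 beside 182 with the block too, and 0 beside 724 with 2 groups. A library left out gave 0 to 1 members, beside 0 to 2710 genes. The causes were not tested.

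Same-numbered libraries deviated together little (r of -0.13 to 0.18 in batch 1 and -0.14 to 0.2 in batch 2, over 0.1 in 3 and 4 of 18 pairs). Libraries of different numbers had r of -0.16 to 0.14 and -0.25 to 0.16. With 3 libraries a group, these values cannot exclude that numbers pair samples. The replicate block changed 1 member call, ERBB2 in ΔTFR1 against FL (0.22, adjusted p = 0.0428), and gave 4 members in FL against EV of batch 2. Against FL, it raised the genes called in all from 1440 to 2231 in ΔTFR1 and from 1432 to 2178 in ΔTFR2. In batch 2 it raised them from 217 to 399 in FL against EV and lowered them from 259 to 170 in ΔTFR5 against FL.

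ERBB4 and, in batch 1, EREG and ERBB3 had counts too low for small differences to be detectable. Fits of all 4 groups, the main one and those with 1 library left out included, assume a common spread in all groups. In batch 2 the chi-square per gene between replicates was 67.55 to 221.37 in FL and 8.44 to 42.05 in the other groups. Calls in comparisons with FL of batch 2 therefore rest in part on the narrower spread of the other groups.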
